A study of Homo sapiens with 3 samples.

Results

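The genes that specify and equip GABAergic neurons were examined in a list of accessible chromatin regions from neurons induced with NGN2. The 9 genes were DLX1, DLX2, DLX5, DLX6, NKX2-1, LHX6, GAD1, GAD2 and SLC32A1. Every region with a summit inside the RefSeq body of a gene, or within 50 kb of its outer ends, was taken, and regions shared by paired DLX genes were counted once. This gave 30 of the 65234 distinct regions in the list, spread over 7 loci. The rule takes regions by position and uses no measured value of them, but the 9 genes were chosen with earlier results of these data known.

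GABA is the main inhibitory transmitter of the forebrain. Its neurons arise largely from the ganglionic eminences, where DLX homeodomain factors drive GABAergic fate and NKX2-1 and then LHX6 direct the lineage of the medial eminence. GAD1 and GAD2 are the glutamate decarboxylases that make GABA, and SLC32A1 loads it into synaptic vesicles. Neurons induced with the proneural factor NGN2 are known to be mostly glutamatergic.

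The cells were neurons of the KOLF2.1J-hNGN2 line, made from the established human induced pluripotent stem cell line KOLF2.1J, after 14 days of differentiation. All 3 replicates form 1 group of this single line, with no untreated or inhibitory culture beside it. ATAC-seq, in which the Tn5 transposase tags accessible DNA, was summarised by the authors in 1 combined list of regions. No value per replicate was analysed here, so no spread between replicates can be given, and each comparison below is between genes or regions of this list, without a test.

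A start was called accessible when a summit lay within 1 kb of a transcription start listed in RefSeq, or of either outer end of a gene without a listed start. Among all 20037 coding genes, 69.8% had an accessible start. Of the marker lists, 10 of 10 pan-neuronal genes, 2 of 5 pluripotency genes, 3 of 6 astrocyte and oligodendrocyte genes and 0 of 6 genes of other tissues had one. Of the pluripotency genes, POU5F1, NANOG and TDGF1 were without one, and LIN28A and DPPA4 had one. Fold enrichment is the authors' ratio of tags at a summit to the local background, and tags are sequenced fragments or fragment ends piled up at the summit in the pooled data. Tag counts were recovered from the ratio and the p-value. They ranged from 58 to 3783 over the list. Intervals on tags are exact Poisson 95% intervals and cover counting error only, since amplified tags are not independent molecules.

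Of the 9 genes, 7 had an accessible start (77.8%), against the 69.8% of all coding genes given above. The list of 9 was thus close to the background in this count. When only regions above the median fold enrichment were kept, 3 of the 9 had one, against 59.4% of coding genes. In bulk chromatin, a weak region in many cells and a strong one in few cells cannot be told apart. With all regions kept, the genes without an accessible start were NKX2-1 and LHX6, the factors of the medial ganglionic eminence. Promoter windows in RefSeq run from 250 bases before to 50 after a start, and 8 of the 9 genes matched the table, with 12 windows. DLX5 did not. Printed below are 6 of them, in GRCh38.p14 and 5′ to 3′, because they span the range from the most to the least accessible start. Base 251 is the transcription start and capitals mark CpG dinucleotides.
DLX1: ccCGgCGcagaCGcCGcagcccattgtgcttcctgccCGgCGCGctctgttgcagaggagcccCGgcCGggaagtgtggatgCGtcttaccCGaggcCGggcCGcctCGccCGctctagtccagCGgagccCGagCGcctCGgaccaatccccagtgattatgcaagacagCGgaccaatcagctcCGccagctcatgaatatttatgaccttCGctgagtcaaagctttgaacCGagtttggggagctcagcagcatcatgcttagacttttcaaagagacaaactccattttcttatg
DLX2: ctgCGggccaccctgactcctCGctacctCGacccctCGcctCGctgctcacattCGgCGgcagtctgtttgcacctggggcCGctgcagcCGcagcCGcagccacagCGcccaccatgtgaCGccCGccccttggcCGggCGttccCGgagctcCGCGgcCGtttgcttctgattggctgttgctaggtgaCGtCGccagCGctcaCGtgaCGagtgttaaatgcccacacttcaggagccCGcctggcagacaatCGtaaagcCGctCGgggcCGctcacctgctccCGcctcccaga
GAD2: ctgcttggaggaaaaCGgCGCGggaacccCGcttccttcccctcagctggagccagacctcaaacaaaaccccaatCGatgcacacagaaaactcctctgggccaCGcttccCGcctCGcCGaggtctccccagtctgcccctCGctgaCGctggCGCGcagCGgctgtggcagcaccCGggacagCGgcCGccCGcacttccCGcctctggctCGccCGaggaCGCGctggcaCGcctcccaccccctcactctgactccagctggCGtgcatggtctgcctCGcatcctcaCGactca
SLC32A1: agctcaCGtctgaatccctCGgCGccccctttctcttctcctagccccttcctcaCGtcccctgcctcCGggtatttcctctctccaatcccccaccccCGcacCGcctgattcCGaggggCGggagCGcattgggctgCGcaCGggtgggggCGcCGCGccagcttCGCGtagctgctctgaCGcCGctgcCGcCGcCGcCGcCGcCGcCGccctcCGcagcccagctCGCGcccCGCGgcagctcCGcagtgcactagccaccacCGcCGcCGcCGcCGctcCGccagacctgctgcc
LHX6: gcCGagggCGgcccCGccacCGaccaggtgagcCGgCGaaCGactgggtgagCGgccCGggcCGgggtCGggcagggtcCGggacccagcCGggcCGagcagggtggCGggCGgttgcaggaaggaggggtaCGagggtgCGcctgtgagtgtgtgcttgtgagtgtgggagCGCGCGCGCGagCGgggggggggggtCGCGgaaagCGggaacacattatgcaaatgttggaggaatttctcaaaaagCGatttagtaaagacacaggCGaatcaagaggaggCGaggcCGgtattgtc
NKX2-1: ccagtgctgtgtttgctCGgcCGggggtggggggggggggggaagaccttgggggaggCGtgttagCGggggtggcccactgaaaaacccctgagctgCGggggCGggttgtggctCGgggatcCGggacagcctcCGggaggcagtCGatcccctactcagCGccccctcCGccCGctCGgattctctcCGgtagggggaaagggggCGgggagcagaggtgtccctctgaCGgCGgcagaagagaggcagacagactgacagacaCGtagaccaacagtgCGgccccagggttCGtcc
They are chr2:172085257-172085556 on the plus strand (DLX1), chr2:172102851-172103150 on the minus strand (DLX2), chr10:26216122-26216421 on the plus strand (GAD2, first of its starts), chr20:38724236-38724535 on the plus strand (SLC32A1), chr9:122228384-122228683 on the minus strand (LHX6, the most upstream of its starts) and chr14:36520183-36520482 on the minus strand (NKX2-1, the more upstream start). The strongest summit of the region lay inside the window at base 127 for DLX1, base 174 for DLX2, base 197 for GAD2 and base 194 for SLC32A1. The LHX6 and NKX2-1 windows held no summit.

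DLX1 and DLX2 had the strongest starts of the group. The proteins are homeodomain transcription factors that act early in GABAergic progenitors, and their genes lie tail to tail on chromosome 2. The region at the DLX1 start (chr2:172084565-172085999) had a fold enrichment of 10.4 and 1045 tags (interval 983 to 1110.3). Its strongest summit lay 124 bp before the start. The region at the DLX2 start (chr2:172102060-172103317) had a fold enrichment of 8.62 and 918 tags (interval 859.6 to 979). Its summit lay 77 bp before the DLX2 start, beside the divergent lncRNA gene DLX2-DT, and ATAC-seq does not say which of these genes a region serves. The tag intervals of DLX1 and DLX2 did not overlap.

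The DLX1/DLX2 locus held 7 regions, the most of any locus within 50 kb, and its density was the highest, at 6.72 regions per 100 kb of window for DLX1 and 6.77 for DLX2. Within 100 kb it held 12 and SLC32A1 13, and above the median fold enrichment of all regions it held 3, as did DLX5/DLX6 and LHX6. The median density over all coding genes was 3.12 per 100 kb, and the DLX genes stood at percentiles 90.2 and 90.4. Upstream of DLX1 a region of fold enrichment 9.34 and 425 tags (chr2:172072020-172073364) lay 13.04 kb before the start, inside METAP1D. A weaker region of fold enrichment 4.37 lay 18.85 kb before it, also inside METAP1D. On the DLX2 side, regions lay 1.13, 10.95 and 29.04 kb before the DLX2 start, with fold enrichments of 3.02, 5.10 and 4.53. All 5 of these regions therefore lay outside the pair.

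DLX5 and DLX6, which act later in the same lineage and also pattern facial skeleton and limb, lie tail to tail on chromosome 7 in the same way. The region at the DLX6 start (chr7:97005183-97006996) had a fold enrichment of 5.95 and 480 tags (interval 438 to 525). It was the second widest of the 30 at 1814 bp and held a second summit of nearly the same strength, 5.78, at 622 bp beyond the start. The region at the DLX5 end that faces away from DLX6 (chr7:97024172-97025204) had a fold enrichment of 3.15 and 243 tags (interval 213 to 276). Its summit lay 1 bp from the outer end of the gene. Both were weaker than the starts of DLX1 and DLX2, and no tag interval of one pair overlapped one of the other.

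At DLX5 the stronger regions were not at the gene. Both lay outside the DLX5 end that faces away from DLX6, which is its upstream side in the tail-to-tail arrangement. A region 3.00 kb from that end (chr7:97027216-97027980) had a fold enrichment of 6.95 and 482 tags. Another, 40.33 kb from it (chr7:97064721-97065483), had 9.63 and 290 tags (interval 258 to 325). The latter was the strongest of the 4 regions of the locus by fold enrichment, over a background of 29.2 tags, the lowest value in the list. By tags it ranked behind the nearer region and the DLX6 start.

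The gaps between the paired genes held no region. The DLX1 to DLX2 gap spans 9763 bp (chr2:172089675-172099437) and the DLX6 to DLX5 gap 9355 bp (chr7:97011041-97020395). Forebrain enhancers that drive the DLX pairs are known to lie in these gaps, and the lncRNA DLX6-AS1 starts in the second. Empty gaps were common. Of 4419 pairs of neighbouring coding genes 5 to 20 kb apart, 43.9% had no region between them, and among the 660 convergent pairs of these, which share the tail-to-tail arrangement, 73.0% had none. The list holds only regions that passed the authors' threshold, so an empty gap gives no upper limit on accessibility.

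**Figure D1:**
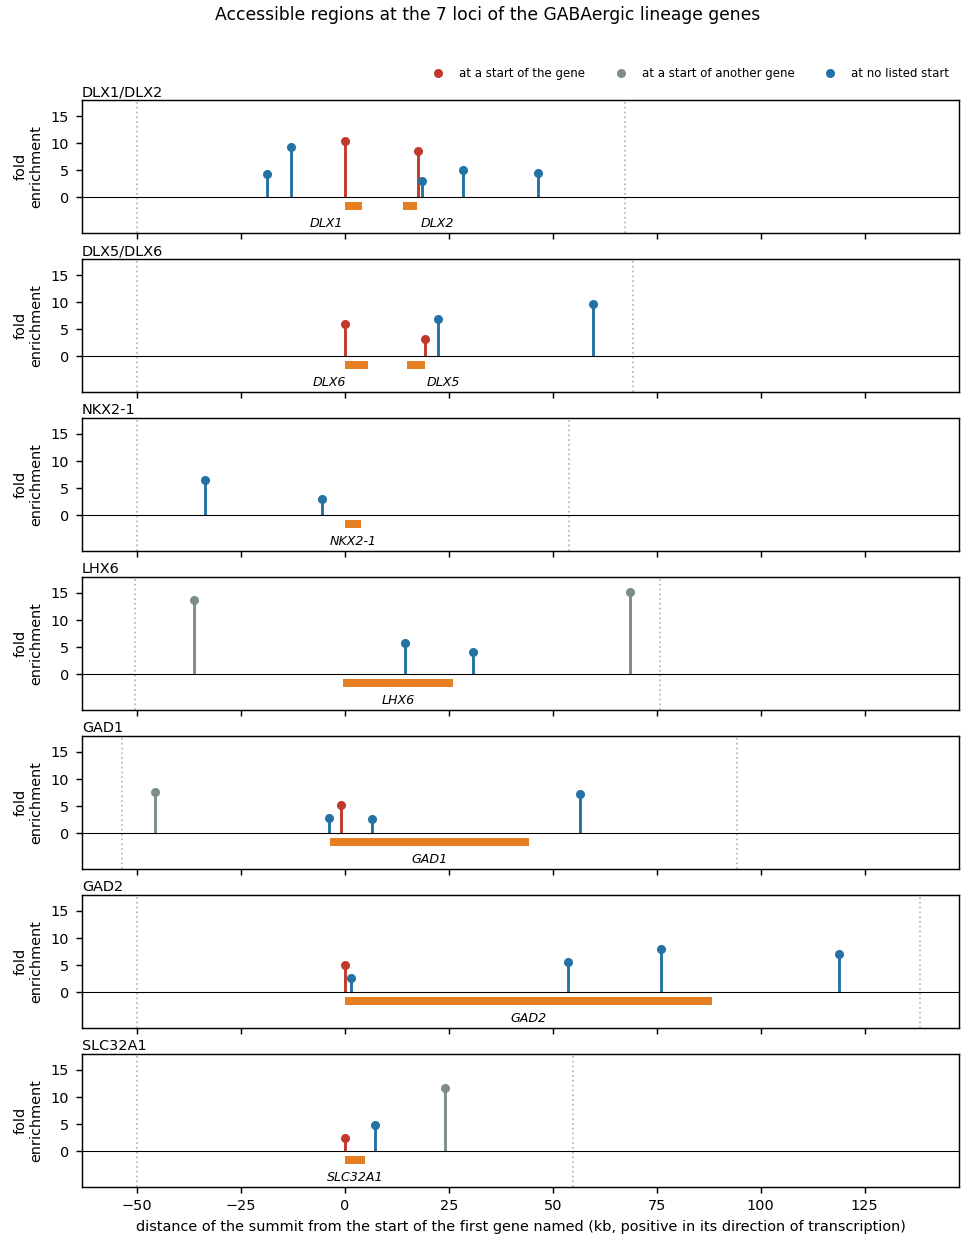
Fold enrichment (vertical axis) of each of the 30 regions against the distance of its strongest summit from the start of the first gene named (horizontal axis, kb). Orange bars are gene bodies, dotted lines are the 50 kb limits and colours give the class of region. Nothing lies between the paired DLX genes, and NKX2-1 and LHX6 lack a region at their start. The tallest regions of LHX6, SLC32A1 and GAD1 belong to starts of other genes.

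NKX2-1, the homeodomain factor that specifies the medial ganglionic eminence and also the thyroid and lung, had the fewest regions of the group within 50 kb, 2. Within 100 kb it had 7, more than the 6 each of DLX5/DLX6 and GAD2. It had none inside the gene and none within 5 kb of its starts. Of 9 genes, 7 had a region with a summit inside the gene, against 71.3% of all coding genes, and NKX2-1 and SLC32A1 had none. The nearest region (chr14:36525581-36525882) lay 5.48 kb upstream, with a fold enrichment of 2.94, 149 tags (interval 126 to 175) and a score of 580 on a scale from 540 to 1000. The other (chr14:36553534-36554111) lay 33.64 kb upstream, inside the lncRNA gene LOC105370453, with a fold enrichment of 6.48 and 211 tags. At 1.93 regions per 100 kb, NKX2-1 stood at percentile 25.5 of coding genes.

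LHX6, a LIM-homeodomain factor needed for the migration and maturation of cortical interneurons, had 3 listed starts and no region at any. The nearest summit lay 7.61 kb from a start, in a region inside the gene (chr9:122213536-122214582) with a fold enrichment of 5.77 and 300 tags (interval 267 to 336). A second region (chr9:122197459-122198562) lay beyond the end of LHX6, inside MORN5, with 4.08 and 143 tags. The other regions of the locus had the highest fold enrichments of the 30. One, of fold enrichment 15.1 and 1155 tags, lay at the shared start of NDUFA8 and MORN5. The other, of 13.7 and 798 tags, lay at the shared start of RBM18 and MRRF. Without these, LHX6 kept 2 regions.

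GAD1, the decarboxylase found throughout GABAergic neurons, had an accessible start whose strongest summit was offset. The region (chr2:170815577-170816459) had a fold enrichment of 5.15 and 479 tags (interval 437 to 524), with its strongest summit 1012 bp before the listed start. A weaker summit of 2.72, at 753 bp before it, placed the gene among the accessible starts, and within 500 bp it had none. The typical distance over accessible coding starts was 78 bp (median of the strongest summit). GAD1-AS1 overlaps this region. A narrow region of fold enrichment 2.89 lay 294 bp outside the outer end of GAD1, 3.97 kb before the start, and a wide one of 1832 bp with 5 summits lay 6.37 kb into the gene at 2.67 and a score of 541. The strongest region of the window, 7.59 with 513 tags, lay at the start of ERICH2. The next, 7.20 with 270 tags (chr2:170873037-170873837), lay beyond the gene, 56.51 kb from its start, at no listed start.

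GAD2, the decarboxylase enriched at nerve terminals, had the most regions inside a gene of the group, 4, in a body of 88187 bp. The region at its start (chr10:26215584-26217029) had a fold enrichment of 5.08, 424 tags (interval 385 to 466) and 5 summits, one of them 54 bp before the first start and another 40 bp before the second start. A separate region followed 1.06 kb beyond the second start at 2.63. Inside the gene, further along, lay regions of 5.52 (chr10:26269443-26270584, 215 tags) and 7.94 (chr10:26291705-26292779, 396 tags). The latter was the strongest of the locus, above the start itself by fold enrichment but not by tags. A region beyond the gene, 30.7 kb from its end, had 6.98 and 210 tags.

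SLC32A1, the vesicular transporter of GABA and glycine, had the weakest accessible start. The region across it (chr20:38723751-38724964) had a fold enrichment of 2.48, 139 tags (interval 117 to 164) and a score of 559. Its single summit lay 57 bp before the start. Among 13976 accessible coding starts it stood at percentile 0.21 by fold enrichment and 1.65 by tags. A region past the end of the gene, 7.16 kb from the start, was stronger, at 4.87 and 221 tags. The strongest of the window, 11.7 with 1076 tags, lay at the start of ACTR5.

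The 7 accessible starts were ordered DLX1, DLX2, DLX6, GAD1, GAD2, DLX5 and SLC32A1 by fold enrichment, and the order by tags was the same. GAD1 was placed by the strongest summit of its region, 1012 bp before the start and so outside the 1 kb limit. Its summit within 1 kb, with 2.72 and 255 tags, was below GAD2 in both and below DLX5 by fold enrichment. All 7 had a lower fold enrichment than the median coding start, 10.6 (quartiles 7.18 and 13.4). DLX1 was nearest, at percentile 48.6, followed by DLX2 at 35.4 and DLX6 at 17.0. GAD1 and GAD2 stood at 12.2 and 11.7, and DLX5 at 1.76. By tags, 6 of the 7 lay below the coding median of 961, and DLX1 lay above it. The tag intervals of DLX6, GAD1 and GAD2 overlapped, and those of the other neighbours in the order did not. These intervals concern tags and not fold enrichment, and whether the steps in the order exceed error was not tested.

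**Figure D2:**
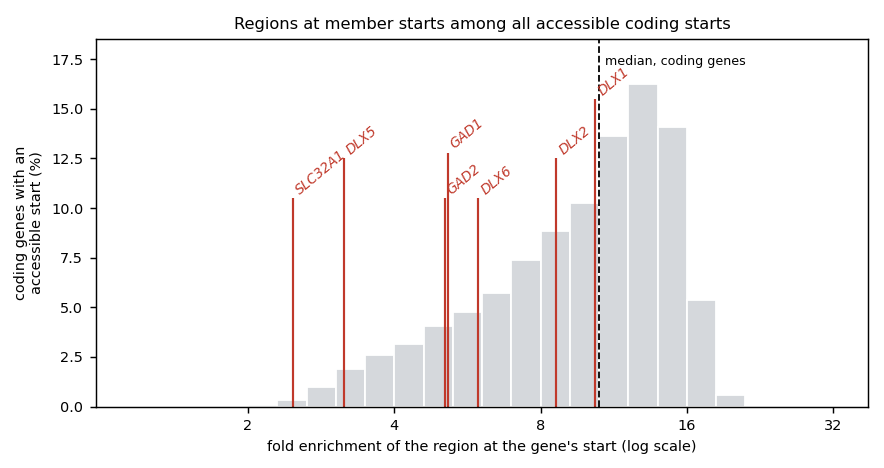
Share of the 13976 accessible coding starts (vertical axis, %) by fold enrichment of the region at the start (horizontal axis, log scale). Red lines mark the 7 genes of the group with an accessible start, which run from 2.48 for SLC32A1 to 10.4 for DLX1, all below the coding median of 10.6 (dashed).

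Low starts were shared by the other marker lists with accessible starts, neuronal or not. In a wider list of GABAergic genes, chosen with earlier results of these data known, 21 of the 24 further genes had an accessible start (87.5%), with a median fold enrichment of 6.61, and 18 of those 21 lay below the coding median. In a list of glutamatergic genes 17 of 21 had one (81.0%), with a median of 5.80, and 16 of the 17 lay below it. The 7 of 9 with a median of 5.15 are thus not set apart from either list by these values. Pan-neuronal genes had a median of 7.35. The astrocyte and oligodendrocyte genes with an accessible start (3 of 6) had a median of 3.87, and the pluripotency genes with one (2 of 5) had 4.23.

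Among other factors of the GABAergic list, 11 of 14 had an accessible start (78.6%, against 69.8% of all coding genes). SOX6, which acts after LHX6 in the medial lineage, had the strongest at 13.6, and SATB1, another factor of that lineage, had 9.08. The genes without one were LHX8, a relative of LHX6 in the same eminence, GSX2, a factor of the lateral eminence, and NR2F2, a factor of the caudal eminence. GSX1 had 5.83, SP8 7.35, SP9 5.61, MAF 7.19, NR2F1 6.61 and PROX1 3.01. SP9 and PROX1 have no listed start and were read at their outer ends.

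In the glutamatergic list the genes without an accessible start were SLC17A7, TBR1, NEUROD2 and NEUROD6. The vesicular glutamate transporter gene SLC17A6, the counterpart of SLC32A1, had 4.27 and 227 tags, against 2.48 and 139 tags for SLC32A1. NEUROG2, the gene of the inducing factor itself, had 8.67 and 1175 tags. That value does not separate the endogenous gene from introduced copies.

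**Figure D3:**
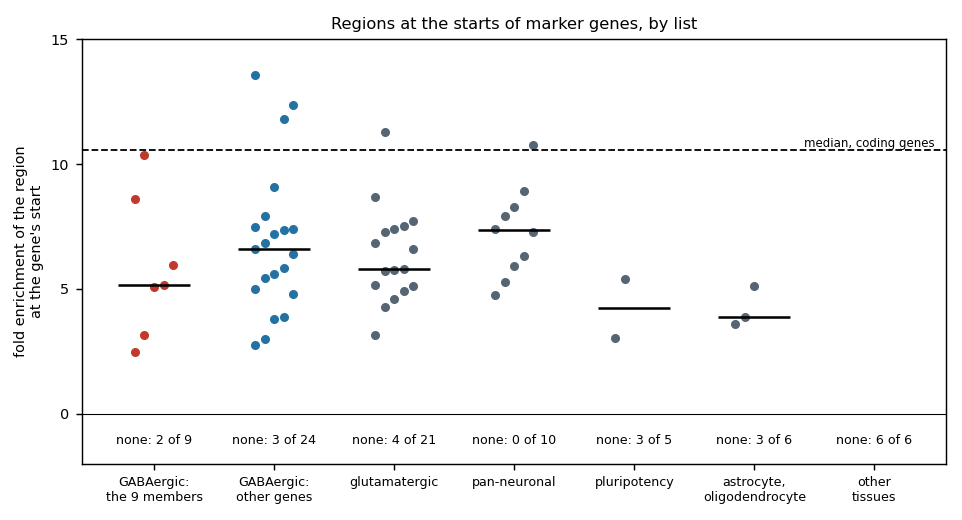
Fold enrichment of the region at the start (vertical axis) for each gene with an accessible start, by marker list. Black bars are medians, the dashed line is the coding median of 10.6 and the numbers at the bottom count genes with no region at a start. The medians of the 9 genes, the further GABAergic genes and the glutamatergic genes lie at 5.15, 6.61 and 5.80.

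Of the 30 regions, 7 lay at a start of the group's own genes, 4 at starts of other genes and 19 at none of these (63.3%). The 7 include the DLX5 region, read at an outer end because that gene has no listed start. Of all regions, 79.4% lay at no listed coding or lncRNA start, and this share includes regions at genes without a listed start. The shares are therefore not counted alike. The windows were also centred on genes, while the 79.4% is over the whole list, and the effect of this on the share was not tested. The 4 at other starts had fold enrichments of 7.59 to 15.1 and 513 to 1155 tags. The 7 at the group's own starts had 2.48 to 10.4, with a median of 5.15. The median over all 13456 regions at a listed coding or lncRNA start was 9.36. The 19 distal regions had a median of 5.10 and a range of 2.63 to 9.63. The median was close to the 5.15 of all regions at no listed start.

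Over all 30 regions, the median fold enrichment was 5.64, against 5.60 for all regions, and the median was 280 tags against 238. Their median width was 1040 bp, and 882 bp over the whole list. Among the 30, 24 carried the top score of 1000 (80.0%), against 73.7% of all regions, and a single summit was recorded for 7 (23.3%) against 33.8%. The 6 regions below a score of 1000 were in the DLX1/DLX2, NKX2-1, GAD1, GAD2 and SLC32A1 loci. In number of regions, the 9 genes had a median of 4, with a range of 2 to 7, against 5 for all coding genes (quartiles 3 and 7).

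**Figure D4:**
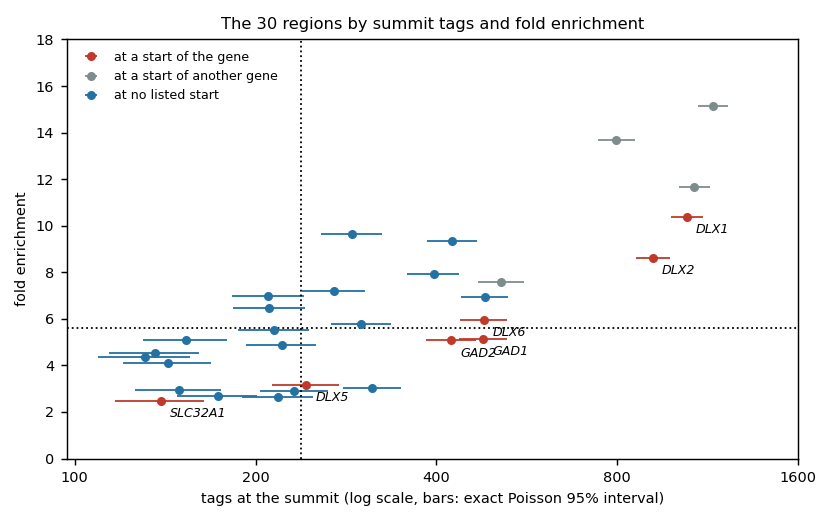
Fold enrichment (vertical axis) against tags at the summit (horizontal axis, log scale) for the 30 regions, with exact Poisson 95% intervals. Dotted lines are the medians of all regions, 5.60 and 238 tags. Starts of DLX1 and DLX2 lie with the starts of other genes at the upper right, and the SLC32A1 start lies at the lower left.

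The limit of 50 kb fell close to 1 region. The nearest region outside lay 50.04 kb from SLC32A1, with a fold enrichment of 7.21 and 416 tags, and counting any overlap in place of the summit brought the total to 31. The outermost region inside lay 42.75 kb from LHX6, and is the one at the start of NDUFA8. At the other loci the first region outside lay 60.9 to 87.3 kb away.

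CpG content of the promoter windows was read from the sequences, since CpG-rich promoters are widely accessible across cell types. The 7 windows at accessible starts held 23 to 38 CpG dinucleotides, with SLC32A1 the richest at 38 and DLX1 the poorest at 23. Accessible coding windows had a median of 26 and the others a median of 5. Among the windows without a region, the 3 of LHX6 held 31, 16 and 7, and the pair of NKX2-1 held 21 and 11. Of 9185 coding windows with 25 or more CpG, 93.7% were accessible, and the most upstream LHX6 window was among the 580 that were not. Of 4639 with 15 to 24, 86.4% were accessible, and 633 were not, among them the more upstream NKX2-1 window and an LHX6 window. The weakest accessible start of the group thus had the richest window.

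**Figure D5:**
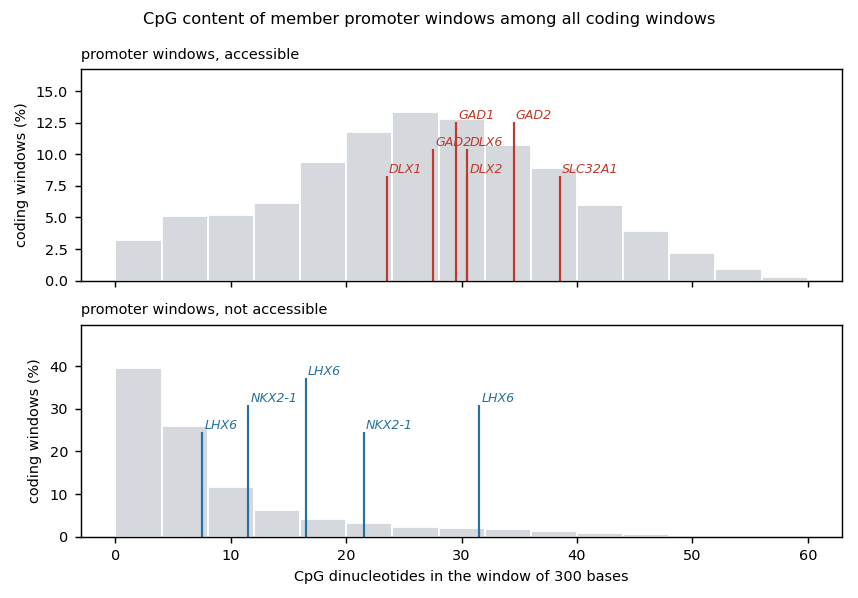
CpG dinucleotides per promoter window of 300 bases (horizontal axis) for all coding windows with and without a summit within 1 kb of the start (bars, % of each set). Coloured lines mark the 12 windows of the group. The accessible ones hold 23 to 38, and the most upstream LHX6 window holds 31 among windows that are mostly poor in CpG.

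Exact words were searched in the 12 windows on both strands. The E-box CANNTG, bound by bHLH factors, was in 5 windows, against 68.7% of all 35116 promoter windows. DLX2 had 4, beginning 178, 135 and 45 bases before the start and 29 after it, GAD1 had 1, the first GAD2 window had 2, the most upstream LHX6 window had 2 and the inner NKX2-1 window had 1. The form CAGATG, which is also a CANNTG and is favoured by proneural factors such as NGN2, was in 0 of 12 windows, against 14.7% of all. The homeodomain core TAATTA was in 1, the inner NKX2-1 window, 103 bases before that start, against 4.84% of all. TTCAGCACC, part of the element of the neuronal repressor REST, and CCACTTGAG, a core of NKX2-1 class factors, were in 0 of 12, against 0.376% and 0.205% of all. The shares over all windows differed with accessibility. CANNTG was in 60.8% of accessible windows and 78.6% of the others, CAGATG in 9.83% and 20.8%, and TAATTA in 2.55% and 7.71%. The 12 windows held a median of 28 CpG, against 14 over all windows, and the effect of this on the counts was not tested. Windows of the same gene are not independent, and a word is not evidence of binding.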

How the data were processed

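ATAC-seq was made from 100000 cells per sample in 3 replicates, per the labels' protocols. The authors deposited 1 list of 145092 summit entries for the group, kept by irreproducible discovery rate, in hg38, per the submitters' processing notes and the labels. The aligner and peak caller are not given in the sources used here. The deposited fold enrichment is a linear ratio per summit, the deposited −log10 p and −log10 q are the peak caller's, and the deposited score runs from 540 to 1000 on a scale that is not stated. Replicates are combined, so depth per sample is unknown.

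Entries that share their interval were counted as 1 of 65234 regions, which took the values of the entry of highest −log10 p. A tag count was recovered for each entry from the ratio, with a pseudocount of 1 in both terms, and the Poisson upper tail. All 145092 were whole to within 0.001 units of −log10 p (the next whole number missed by a median of 0.266), and 100% of 20000 simulated summits were recovered exactly. Genes, starts and promoter sequences came from RefSeq (GRCh38.p14). Starts were listed for 15843 of 20037 coding genes, of which 72.4% had an accessible start, and both outer ends stood in for the other 4194 (59.9%). All but 1 of the 81 listed genes matched by current symbol, and that gene by a synonym.

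The members, lists, alternatives and words were chosen with earlier results of these data known. Named are the 9 genes, the regions in or within 1 kb of them, the 3 strongest per locus and the list genes. Some genes of the lists are counted but not reported by name here. Other regions of the 30, and the genes beside them, were named after their values were seen. With 1 group and no value per replicate no test was made. Python 3.11.15, numpy 2.4.6, scipy 1.17.1, pandas 2.3.3 and matplotlib 3.10.9 were used.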

Additional observations from a re-analysis of the deposited data

How the results depend on the processing

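No paired analysis was possible because all 3 replicates share 1 group and 1 combined list, which also left no replicate to omit. Of 37 recomputed values for the main counts and medians, 27 stayed within 1.5 times or within the 95% rank interval of the median (4.53 to 7.20 for fold enrichment, 3 to 7 for regions per gene) and 10 moved. The median in tags, 280 against 238 for all regions, was judged by its ratio to the value for all regions. Keeping only regions above the median fold enrichment left 15 regions, a median of 2 per gene (all coding genes 3), and accessible starts at 3 of the 9 genes (59.4% of coding genes), 17 GABAergic and 11 glutamatergic genes. DLX1, DLX2 and DLX6 were the 3. A window of 100 kb gave 61 regions and a median of 8 per gene, and all summit entries gave 75, a median of 12 and a median fold enrichment of 3.03 (3.86 for all entries). Each setting admits a different number of regions, entries or bases, and what moved each value was not tested. Above the median fold enrichment the share of coding genes went from 69.8% to 59.4%, and the 9 genes went from 7 to 3. The accessible start of SLC32A1 was lost at a score of at least 830, and that of GAD1 within 500 bp. LHX6 and NKX2-1 had none in any of the 7 settings. Of 49 values for single loci, 19 moved by over 1.5 times. At a score of at least 830, NKX2-1 kept 1 region.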

Other observations

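The 7 genes of the wider list that mark subtypes of cortical interneurons had an accessible start in these neurons, against 69.8% of all coding genes, and 6 of the 7 lay below the coding median fold enrichment of 10.6. Among the neuropeptide genes, the start of SST had a fold enrichment of 6.84 and 223 tags, that of VIP 5.43 and 163 tags, and that of NPY 3.86 and 166 tags. The calcium-binding protein genes CALB1, CALB2 and PVALB had 11.8, 7.93 and 4.80, with 635, 403 and 207 tags, the first pair at outer ends of genes without a listed start. RELN, the gene of an extracellular matrix glycoprotein, had 7.39 and 542 tags. VIP had a single region in its gene body and the 50 kb on either side, the fewest of the wider GABAergic list.

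ABAT, the transaminase that breaks GABA down, had 12.4 and 742 tags at its start. ERBB4, a neuregulin receptor of interneurons, had a start of 2.75 and 383 tags and the most regions of the list, 38, of which 34 had a summit inside this long gene. SOX6 followed with 24 regions, 21 of them inside.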
